A study of Drosophila melanogaster with 3 samples.

Results

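The genes described here encode the translation initiation factors of Drosophila melanogaster, taken as the protein-coding genes of the dm6 gene models whose symbol starts with eIF. They numbered 44 of 13945 protein-coding genes, with 2 eIF1, 10 eIF2, 16 eIF3, 13 eIF4, 2 eIF5 and 1 eIF6 genes. Binding of Lola-RI, one of the many zinc finger transcription factors with a BTB domain made from the lola gene, was mapped by chromatin immunoprecipitation with sequencing (ChIP-seq) in 3 biological replicates that formed 1 group. The animals were whole larvae, both sexes mixed, at the wandering stage of the third instar, of unstated age, from 1 transgenic line with a stable Lola-RI that carried eGFP at its C terminus. The eGFP tag was immunoprecipitated with an antibody to GFP, no second condition was measured, and every replicate carried the tagged protein. The labels state neither the promoter that drove it nor the cells that held it, so binding in few cells and weak binding in many cells cannot be told apart.

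Translation initiation brings the initiator tRNA, the small ribosomal subunit and an mRNA together at a start codon. In outline, the eIF4 factors hold the cap and unwind the leader, eIF2 delivers the initiator tRNA and eIF2B recharges it, eIF3 is the scaffold on the small subunit, and eIF1 and eIF1A govern scanning. eIF5 triggers GTP hydrolysis by eIF2, eIF5B joins the large subunit, and eIF6 keeps free large subunits from joining early. Lola is best known for roles in axon guidance, and different lola isoforms carry different zinc fingers.

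A gene was called bound where the summit of a peak lay within 500 bp of any of its transcription start sites (TSSs). The authors' irreproducible discovery rate (IDR) list, the peaks they kept as reproducible, held 9202 peaks, and peaks were ranked by the authors' score, with rank 1 the highest. By this measure 19 of 44 eIF genes were bound, 43.2% (Wilson 95% interval 29.7 to 57.8, counting error over genes only), against 34.0% of all protein-coding genes. The interval held the value of all protein-coding genes. Each replicate list was shortened to its 9202 highest-scoring peaks to give lists of equal length. They called 16, 18 and 21 eIF genes in replicates 1, 2 and 3, or 36.4%, 40.9% and 47.7%, against 33.7%, 32.5% and 36.2% of all protein-coding genes. The eIF share averaged 41.7% ± 5.72 and that of all protein-coding genes 34.1% ± 1.90 (SD, n = 3 replicates). The difference was positive in 3 of 3 replicates, at 2.70, 8.43 and 11.5 percentage points (mean 7.55 ± 4.48 SD). It was small in replicate 1, and no test was made of it.

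The strongest peaks did not keep that difference. Among the 4601 highest-scoring IDR peaks, summits fell at 8 eIF genes, 18.2%, against 20.0% of all protein-coding genes. Replicate lists of that length called 9, 8 and 9 eIF genes, or 20.5%, 18.2% and 20.5%, against 20.1%, 18.5% and 20.5% of all protein-coding genes. The median best rank of the bound eIF genes was 5115, against 3845 for all bound protein-coding genes, so the eIF summits were weaker on this scale. The shortened replicate lists gave medians of 4193, 5152.5 and 5003 for eIF genes, against 3750, 4027 and 4076 for all bound protein-coding genes. In the full replicate lists of 30000 peaks, 24, 25 and 26 eIF genes were bound, or 54.5%, 56.8% and 59.1%, against 49.9%, 47.7% and 51.2%. All 3 shortened lists called 13 eIF genes, 29.5%, against 27.3% of all protein-coding genes.

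**Figure D1:**
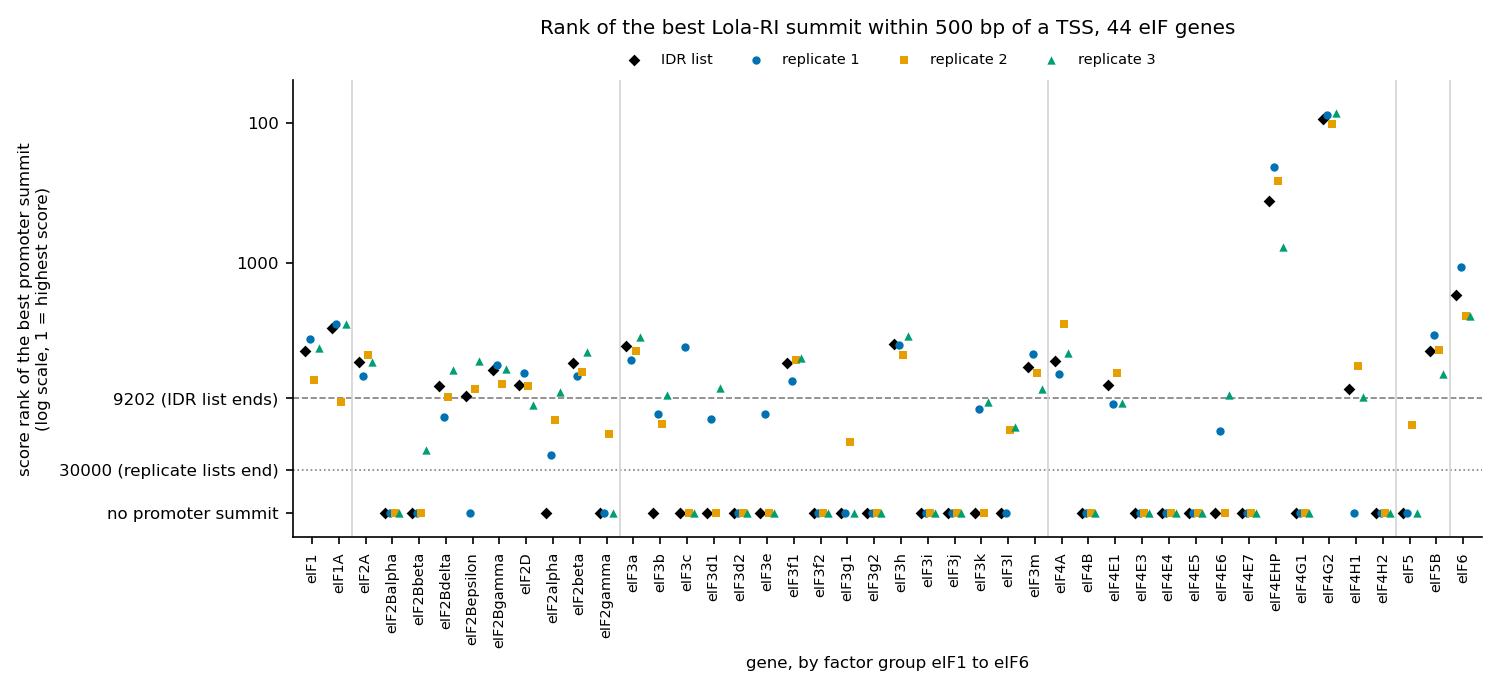
Rank of the best Lola-RI promoter summit (log scale, rank 1 at the top) for each of the 44 eIF genes in the IDR list and the 3 replicate lists, with genes grouped from eIF1 to eIF6. The symbols of eIF4G2 and eIF4EHP stand above those of all other genes, and 13 genes have every symbol on the line for no promoter summit.

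Some of the bound sequences are shown first, because they hold the 2 strongest eIF summits and those eIF summits with a DNA replication-related element (DRE) that lie outside exons. The DRE, TATCGATA, is the site of the factor DREF and is common at promoters of housekeeping genes in flies. Each line gives the stretch without exons of the 101 bp around the best IDR summit, 5′ to 3′ on the strand of the eIF gene, from the release 6 genome. Capitals mark the DRE, and sequences with no capitals hold none of the motifs searched in these windows. The positions are chr3R:23819296-23819396 on the reverse strand for eIF4G2, chr3R:24109127-24109227 on the reverse strand for eIF4EHP and chr3L:3222979-3223079 on the forward strand for eIF1. They are chr3R:4433896-4433964 for eIF3a and chr3R:4714183-4714238 for eIF3f1, both on the reverse strand.
eIF4G2: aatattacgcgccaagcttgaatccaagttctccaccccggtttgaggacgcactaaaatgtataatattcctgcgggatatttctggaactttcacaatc
eIF4EHP: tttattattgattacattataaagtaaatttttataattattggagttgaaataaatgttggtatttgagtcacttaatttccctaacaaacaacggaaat
eIF1: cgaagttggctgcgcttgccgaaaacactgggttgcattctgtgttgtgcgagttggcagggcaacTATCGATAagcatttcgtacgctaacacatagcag
eIF3a: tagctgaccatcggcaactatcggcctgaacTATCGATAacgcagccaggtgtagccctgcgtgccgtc
eIF3f1: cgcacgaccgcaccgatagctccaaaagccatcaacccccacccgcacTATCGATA
In eIF3f1 the DRE spanned the summit and ended at base -1 relative to the TSS, and in eIF3a it ran from base -11 to base -4 relative to the summit. In eIF1 it ran from base 16 to base 23 downstream of the summit, which lay nearer to RpL28 than to eIF1.

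The highest-ranked members belonged to the cap-binding and scaffold factors of the eIF4 group. The scaffold eIF4G bridges the cap-binding protein and the small ribosomal subunit, and eIF4G2 is a second eIF4G gene known for its part in male germ cells. Its promoter summit had rank 94 in the IDR list, with ranks of 89, 103 and 86 in replicates 1, 2 and 3. These ranks lay close together, and the summits lay 109, 100 and 112 bp upstream of the TSS. The peak ran from 23818726 to 23820050 on 3R, and the TSS was shared with CG33111, a gene on the same strand. The other scaffold gene, eIF4G1, lies on chromosome 4 and had no promoter summit in any list. Its nearest IDR summit was 6576 bp from the TSS.

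Rank 360 was held by eIF4EHP, a cap-binding protein that represses translation of chosen mRNAs in the embryo. Its ranks were 208, 262 and 770 in replicates 1, 2 and 3. All 3 ranks were better than the median of bound genes, and the summit lay 217 bp upstream in the IDR list and 224, 219 and 231 bp upstream in the replicates. The peak, on 3R from 24108867 to 24109444, stood between eIF4EHP and the divergent gene CG18428, whose TSS lay 376 bp from that of eIF4EHP. The summit was nearer to CG18428, at 159 bp.

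Of the 7 cap-binding eIF4E genes, eIF4E1, which encodes the main cap-binding protein, was bound besides eIF4EHP. Its promoter summit had rank 7375 in the IDR list, with ranks of 10081, 6075 and 9902 in the replicates, so that 1 of 3 shortened lists held it. It lay 318 bp downstream of a TSS. A stronger summit of the same peak, rank 2204, lay 518 bp from the nearest eIF4E1 TSS in 5′ UTR sequence and so fell just outside the window. eIF4E6 had a summit in the pooled list at rank 10088, in replicate 1 at rank 15683 and in replicate 3 at rank 8760. eIF4E3, eIF4E4, eIF4E5 and eIF4E7 had none in any list.

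Among the helicase and its partners, eIF4A, the RNA helicase that unwinds mRNA leaders, had ranks of 5006 in the IDR list, and of 6182, 2720 and 4347 in the replicates. Its peak on 2L, from 5981369 to 5982726, covered 3 summits at ranks 5006, 5784 and 6141. Each lay within 500 bp of at least 1 of the 3 eIF4A TSSs. The strongest differed between lists. It lay at 5981914 in the IDR list and at 5981922 in replicate 2, near the first TSS, but at 5982459 and 5982479 in replicates 1 and 3, between the other TSSs. eIF4H1 encodes a cofactor of eIF4A. It had rank 7849 in the IDR list, no summit in replicate 1 and ranks 5428 and 8970 in replicates 2 and 3. The other cofactor genes, eIF4B and eIF4H2, had none in any list. In all, 5 of 13 eIF4 genes were bound, 38.5%, against 34.0% of all protein-coding genes. The shortened replicate lists called 3, 5 and 5 eIF4 genes, or 23.1%, 38.5% and 38.5%, against 33.7%, 32.5% and 36.2%.

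**Figure D2:**
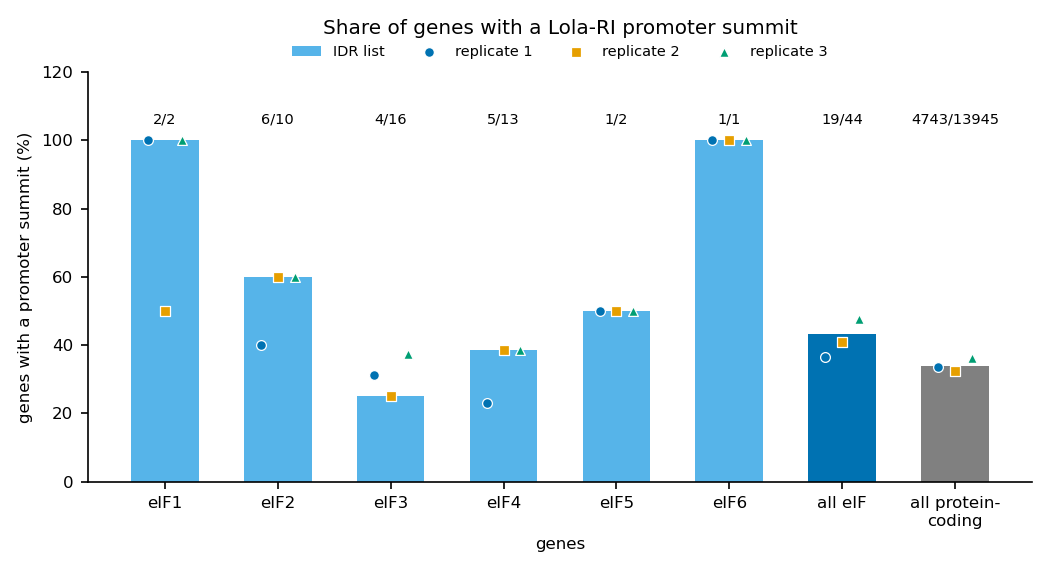
Share of genes with a promoter summit (per cent) in the IDR list (bars) and in the 3 shortened replicate lists (points), for the factor groups eIF1 to eIF6, for all eIF genes and for all protein-coding genes. Counts above the bars are for the IDR list, from 4 of 16 eIF3 genes to both eIF1 genes and the lone eIF6 gene.

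The eIF2 group had 6 of 10 genes bound, 60.0%, against 34.0% of all protein-coding genes. Its median rank of 6549 was the weakest IDR median of the 6 groups, against 3845 for all bound protein-coding genes. No eIF2 gene was among the 4601 strongest IDR peaks, which fell at 20.0% of all protein-coding genes. Single replicates ranked eIF2A (4487, replicate 2) and eIF2beta (4334, replicate 3) that high. The shortened replicate lists called 4, 6 and 6 eIF2 genes, or 40.0%, 60.0% and 60.0%, against 33.7%, 32.5% and 36.2%. eIF2 itself is a trimer that carries the initiator tRNA. Of its genes, eIF2beta had rank 5124 and ranks 6431, 5937 and 4334 in the replicates. Its best summit lay 107 bp upstream in the IDR list. In replicates 1, 2 and 3 it lay 6 bp upstream, 4 bp downstream and 106 bp upstream. eIF2alpha, the subunit phosphorylated in stress, had no IDR summit. It had rank 12215 in the pooled list and ranks 23160, 13238 and 8280 in replicates 1, 2 and 3. eIF2gamma, the GTP-binding subunit, shares its TSS with Su(var)3-9 and had a summit in replicate 2 alone, at rank 16559.

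eIF2B, the exchange factor that reloads eIF2 with GTP, has subunits encoded by 5 genes, of which 3 were bound. eIF2Bgamma had rank 5755 and ranks 5295, 7306 and 5715 in the replicates, with its summit 8 bp upstream of the TSS. eIF2Bdelta had rank 7579 and ranks 12410, 8980 and 5808, and its summit lay 83 bp upstream but 7 bp from the divergent gene roh. eIF2Bepsilon, the catalytic subunit, had rank 8859, no summit in replicate 1 and ranks 7896 and 5003 in replicates 2 and 3. Of these, eIF2Bgamma alone was in all 3 shortened lists. eIF2Balpha had no promoter summit in any list, and eIF2Bbeta had a single one, at rank 21601 in replicate 3.

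eIF2A and eIF2D encode factors that can bring initiator tRNA to the ribosome without eIF2, and both were bound. eIF2A had rank 5115 in the IDR list, with ranks of 6355, 4487 and 5038 in the replicates, and its summit lay 53 bp upstream of a TSS. eIF2D had rank 7343 and ranks 6118, 7504 and 10352, with the summit 60 bp upstream, and fell past the end of the shortened list in replicate 3.

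The eIF3 genes, which encode the large scaffold complex, formed the group with the lowest share in the IDR list. Of 16 genes, 4 were bound, 25.0%, against 34.0% of all protein-coding genes. Their median rank was 4523, and the shortened replicate lists called 5, 4 and 6 eIF3 genes. The group's replicate mean of 31.2% ± 6.25 (SD, n = 3) lay within 1 SD of that of all protein-coding genes. eIF3h, which had the best rank, had rank 3751 and ranks 3808, 4492 and 3311 in the replicates. Its IDR summit lay 43 bp downstream of a TSS and 106 bp upstream of senju. eIF3a, the largest core subunit, had rank 3886 and ranks 4932, 4215 and 3377, with the summit between it and CG1074. These were among the steadiest ranks of the bound members, with SDs of 593 and 778 places. eIF3f1, an MPN domain subunit, had rank 5160 and ranks 6907, 4877 and 4778, with the summit 6 bp upstream of the TSS. eIF3m, a PCI domain subunit, had rank 5535 and ranks 4440, 6120 and 7962. All 4 were in each shortened list.

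eIF3b, a core subunit that contacts the mRNA path, was bound in the pooled list at rank 11327 and had ranks 11987, 14123 and 8723 in the replicates. eIF3l had rank 11088 in the pooled list and ranks 15421 and 14770 in replicates 2 and 3. eIF3c, another core subunit, had a summit 10 bp upstream of its TSS at rank 3946 in replicate 1. The pooled list and the other replicate lists held none there. eIF3d1 had ranks 12905 and 7823 in replicates 1 and 3, eIF3k had ranks 11010 and 9743 in the same replicates, eIF3e had rank 11920 in replicate 1 and eIF3g1 had rank 18764 in replicate 2. eIF3i and eIF3j had no promoter summit in any list. Where the group had paralogue pairs, the first gene of each (eIF3d1, eIF3f1 and eIF3g1) had a summit in at least 1 list and the second (eIF3d2, eIF3f2 and eIF3g2) had none. By that lenient measure 42.8% of all protein-coding genes had no summit in any list. eIF3g1 had its only summit in replicate 2, and eIF3d1 had none in the IDR or pooled list. Of the pairs, the IDR list called eIF3f1 alone.

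The scanning factor genes were both bound. eIF1A had rank 2887 in the IDR list, with ranks of 2712, 9793 and 2717 in replicates 1, 2 and 3. Replicate 2 lacked the upstream summit that the other lists held and had one 19 bp downstream of the TSS. The IDR summit lay 138 bp upstream of eIF1A but 81 bp from the divergent gene Vps39. eIF1 had rank 4244 and ranks 3495, 6841 and 4047. Its best IDR summit lay 312 bp upstream and 69 bp from RpL28, a ribosomal protein gene in the other direction, and a second summit, rank 5589, lay 110 bp upstream of eIF1. In replicate 2 the best summit was instead 213 bp downstream.

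In the eIF5 group, eIF5B was bound and eIF5 was not. eIF5B encodes the GTPase that joins the large subunit, and had rank 4270 and ranks 3274, 4161 and 6137 in the replicates. In the IDR list its promoter summit lay 135 bp upstream of an internal TSS. The best summit of replicates 1, 2 and 3 lay 125 bp upstream, 8 bp downstream and 4 bp upstream of that TSS. eIF5 had a summit in replicate 2 alone, at rank 14278, and its nearest IDR summit was 65403 bp away. eIF6, the only gene of its group, was the third-best member, with rank 1695 and ranks 1061, 2380 and 2378. Its summit on 2R lay 99 bp upstream, in a peak from 23850200 to 23850586, and 70 bp downstream of the TSS of the antisense RNA gene asRNA:CR45928.

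The spread over replicates limited the comparison of factor groups. The share of bound genes averaged 53.3% ± 11.5 for eIF2, 31.2% ± 6.25 for eIF3 and 33.3% ± 8.88 for eIF4 over the 3 shortened replicate lists (SD, n = 3). All protein-coding genes averaged 34.1% ± 1.90 in these lists. eIF3 and eIF4 therefore did not differ beyond their spread, from each other or from all protein-coding genes. eIF2 lay above both in replicates 1, 2 and 3, although in replicate 1 it had 4 of 10 genes against 5 of 16 for eIF3. With 1 or 2 genes, the shares of eIF1, eIF5 and eIF6 could take few values. By median IDR rank the order was eIF6 at 1695, eIF1 at 3565.5, eIF5 at 4270, eIF3 at 4523, eIF4 at 5006 and eIF2 at 6549. The median over all bound protein-coding genes was 3845, between those of eIF1 and eIF5. The order of the groups was not kept between replicates. In replicate 1 eIF4 came first with a median of 208, from its 3 bound genes, and in replicate 3 eIF3 came last at 6300.5.

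Binding across the lists was graded. Of the 19 bound genes, 17 had a promoter summit in all 3 full replicate lists, and 13 were in all 3 shortened lists, 5 in 2 and 1 in 1. Of the 25 genes without an IDR promoter summit, 4 had one in the pooled list (eIF2alpha, eIF3b, eIF3l and eIF4E6) and 8 in a full replicate list alone. The pooled list thus called 23 eIF genes, 52.3%, against 48.1% of all protein-coding genes. The remaining 13 eIF genes had none in the pooled list or in any full replicate list, 29.5%, against 42.8% of all protein-coding genes. They were eIF2Balpha, eIF3d2, eIF3f2, eIF3g2, eIF3i, eIF3j, eIF4B, eIF4E3, eIF4E4, eIF4E5, eIF4E7, eIF4G1 and eIF4H2.

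Distances to the nearest IDR summit ran from near misses to genes far from any IDR peak. The median over the eIF genes was 1323 bp, against 3146 bp for all protein-coding genes. The 25 eIF genes without an IDR promoter summit had a median of 9030 bp, against 7434.5 bp for all such protein-coding genes, and 44.0% against 40.8% lay over 10000 bp away. eIF4B, on 3L from 27842669 to 27858271, was farthest, at 4120035 bp, followed by eIF5 and eIF3g2 at 65403 and 56294 bp. The lack of IDR summits covered a long stretch of 3L around eIF4B, and its nearest pooled summit was 233100 bp away. The cause of that lack was not tested. Just inside the window were summits of eIF2Bepsilon at 309 bp, eIF1 at 312 bp and eIF4E1 at 318 bp. Just outside it were a second summit near eIF5B at 501 bp, the strong summit of eIF4E1 at 518 bp and one near eIF3b at 527 bp. The next, 677 bp from eIF2Bbeta, had rank 352. It lay 42 bp from the TSS of Ugalt, and that near eIF3b lay 37 bp from a TSS of Patronin.

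**Figure D3:**
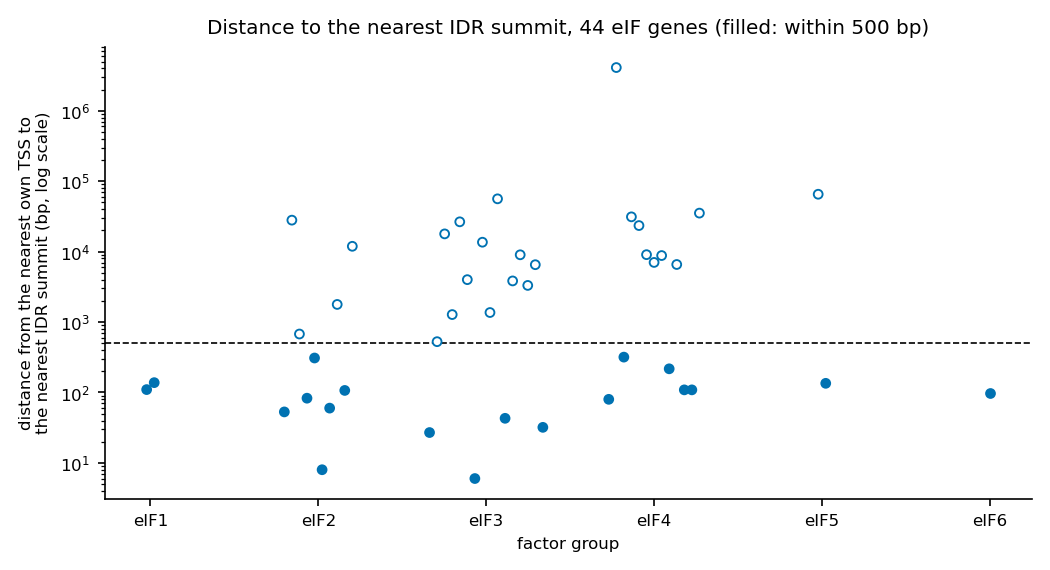
Distance (bp, log scale) from the nearest own TSS to the nearest IDR summit for the 44 eIF genes by factor group, with filled symbols for the 19 genes within 500 bp and open symbols for the others. eIF4B stands alone at the top, at 4120035 bp.

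Several bound eIF genes shared their promoter with a neighbour. The best IDR summit of 11 of the 19 bound eIF genes also lay within 500 bp of another gene's TSS, and for 6 of them another TSS was nearer. When each summit counted for the nearest TSS only, 14 eIF genes were bound, 31.8%, against 27.1% of all protein-coding genes. The genes lost were eIF1A, eIF2Bdelta, eIF2Bepsilon, eIF4EHP and eIF6. Of 19 eIF genes with a divergent gene's TSS within 500 bp, 11 were bound, 57.9%, against 52.7% of such protein-coding genes. Of the 25 without one, 8 were bound, 32.0%, against 26.1%. Of 15 eIF genes with 2 or more TSSs, 10 were bound, 66.7%, against 54.6%, and of 29 with 1 TSS, 9 were bound, 31.0%, against 26.6%. The eIF share was above that of all protein-coding genes in each of these 4 classes, which divide the same eIF genes in 2 ways. Each Wilson interval held the share of all protein-coding genes in its class. The intervals were 36.3 to 76.9 with a divergent gene's TSS and 17.2 to 51.6 without one. They were 41.7 to 84.8 with 2 or more TSSs and 17.3 to 49.2 with 1 TSS. Whether the number of TSSs or a shared promoter sets a call was not tested.

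Most summits sat close upstream of the TSS. In the IDR list 14 of 19 bound eIF genes, 73.7%, had their best summit upstream of the nearest own TSS, against 81.8% of all bound protein-coding genes. The median position was -60 bp for eIF genes, against -104 bp for all bound protein-coding genes (negative is upstream), and 15 of 19, 78.9%, lay within 200 bp, against 74.2%. The replicates gave 75.0%, 55.6% and 71.4% upstream for eIF genes, against 82.6%, 77.6% and 82.2%. The eIF share was the lower one in 3 of 3 replicates, by the widest margin in replicate 2.

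**Figure D4:**
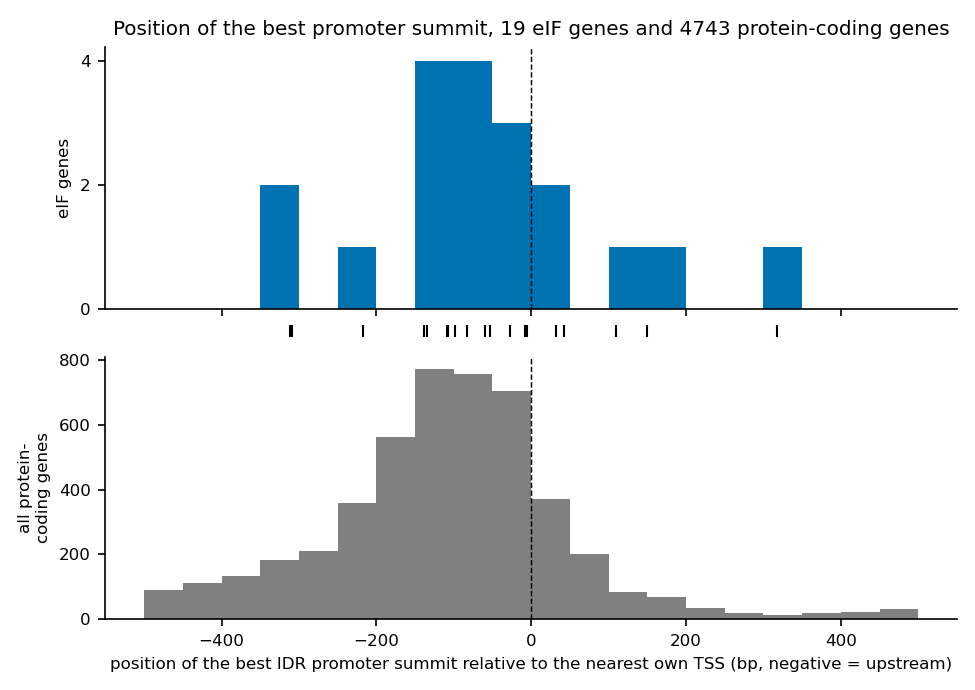
Position (bp, negative is upstream) of the best IDR promoter summit relative to the nearest own TSS, for the 19 bound eIF genes (top, with each gene as a tick below) and for all 4743 bound protein-coding genes (bottom). The eIF summits run from 312 bp upstream to 318 bp downstream.

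Within gene bodies, from the first to the last annotated base, 9 of 44 eIF genes held an IDR summit, 20.5% (Wilson 95% interval 11.2 to 34.5), against 19.1% of all protein-coding genes. The shortened replicate lists gave 9, 11 and 13 eIF genes, or 20.5%, 25.0% and 29.5%, against 19.2%, 19.7% and 19.6%. The means were 25.0% ± 4.55 for eIF genes and 19.5% ± 0.276 for all protein-coding genes (SD, n = 3). The pooled list gave 13 eIF genes, 29.5%, against 33.0%. The eIF value was therefore on either side of that of all protein-coding genes, depending on the list. Of the 17 IDR summits in eIF gene bodies, 9 lay within 500 bp of an own TSS. Only 4 eIF genes, 9.09%, had a body summit over 500 bp from every own TSS, against 10.7% of all protein-coding genes. The median eIF gene was 1967 bp long, against 2166 bp for all protein-coding genes.

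The summits away from promoters were found in 4 genes, of which eIF4EHP (45884 bp) and eIF5B (32320 bp) are the longest. eIF5B held 4 intronic IDR summits, at ranks 4073, 5551, 6251 and 7709, which lay 23220, 27727, 10014 and 28798 bp from the nearest own TSS. With its promoter summit, its body held 5 IDR summits, and 7, 5 and 4 in the shortened replicate lists. eIF4EHP held 1 intronic IDR summit at rank 2228, 23853 bp inside the gene. A further IDR summit in an eIF4EHP intron, rank 1378, lay 450 bp from the TSS of Syx1A, a syntaxin gene nested in it. Its body held 4, 4 and 3 summits in the shortened replicate lists. eIF1A held 1 intronic summit at rank 7856, 2925 bp inside the gene, and eIF4E1 held the summit in 5′ UTR sequence already described. Among all 663 protein-coding genes of at least 30000 bp, 57.0% had an IDR summit over 500 bp from every own TSS and 23.5% had 4 or more. eIF5B, with 4 such summits, was among the genes with 4 or more, and eIF4EHP, with 2, was not.

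**Figure D5:**
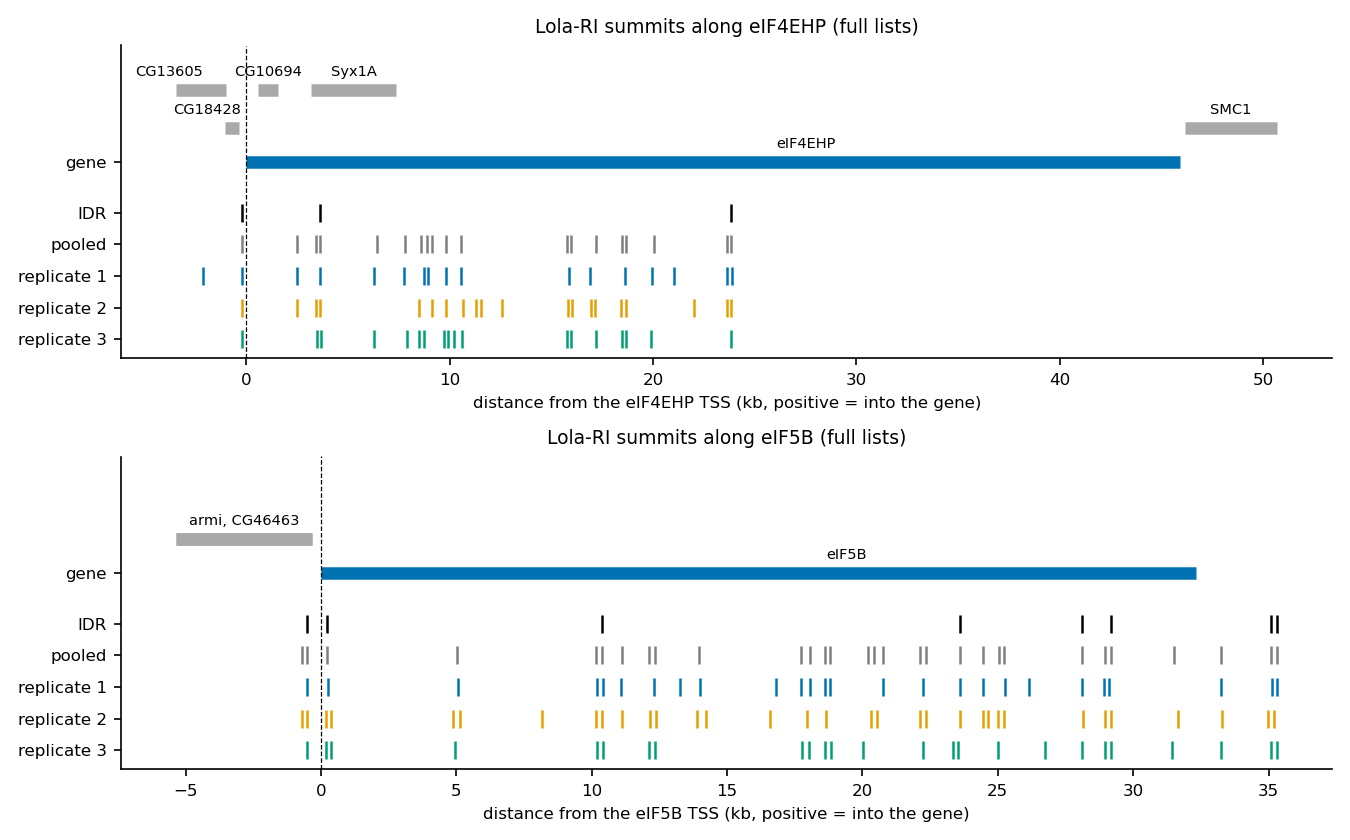
Lola-RI summits along eIF4EHP (top) and eIF5B (bottom), as ticks at their distance from the first TSS (kb) in the IDR, pooled and full replicate lists, with the gene in blue and its neighbours in grey. Summits of eIF4EHP stop near the IDR summit 23853 bp inside the gene, and those of eIF5B run along most of its 32320 bp.

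Sequence around the summits was searched for 5 short motifs on both strands, in 101 bp windows around the best promoter summits. The DRE, whose letters hold none of the other motifs, occurred in 4 of 19 eIF windows, 21.1% (eIF1, eIF2A, eIF3a and eIF3f1). Of the windows of all bound protein-coding genes, 3.11% held it. These windows numbered 3669 for 4743 bound genes, whereas the promoter shares below are over genes. The eIF1 window lay around a summit 312 bp from eIF1 but 69 bp from RpL28. The eIF3a summit lay 27 bp from eIF3a and 43 bp from CG1074. From 250 bp upstream to 50 bp downstream of the first TSS, the DRE occurred in 12 of 44 eIF promoters, 27.3%, against 9.36% of all 13945. It was not more common at the bound ones. It occurred in 5 of 19 bound eIF promoters, 26.3%, and in 7 of 25 others, 28.0%, against 12.7% of all bound protein-coding promoters. Bound eIF1A, eIF3a, eIF3f1, eIF4A and eIF6 held it, as did eIF2alpha, eIF2Bbeta, eIF2gamma, eIF3c, eIF3l, eIF4B and eIF4E6, of which eIF2gamma held 3 copies.

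GAGAG, the core of the GAGA factor site, showed the opposite direction. It occurred in 0 of 19 eIF summit windows, against 16.2% of all windows, and in 7 of 44 eIF promoters, 15.9%, against 29.7% of all promoters. Of bound eIF genes, eIF4H1 alone held it in the promoter, against 33.6% of all bound protein-coding genes. GGTCACAC, the core of a fly core promoter motif, was in 1 eIF summit window and 6 eIF promoters, against 2.97% and 7.70% of all. CACGTG, an E-box, was in 0 and 3, against 0.927% and 4.20%. ACACAC, which shares the letters CACAC with GGTCACAC, was in 2 and 6, against 6.73% and 15.7%. CTTTT starting within 5 bp of the first TSS on the gene's strand, which resembles the TCT initiator of ribosomal protein genes, was found at eIF3f1, eIF3i and eIF4A, 3 of 44 eIF genes, against 1.94% of all. The median GC content of the summit windows was 44.6% for bound eIF genes, against 38.6% for all bound protein-coding genes. In the promoter windows it was 38.0% for bound eIF genes, 35.3% for the other eIF genes and 38.0% for all protein-coding genes. The part of base composition in the motif counts was not tested.

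Other genes of translation, whose symbols do not start with eIF, were taken in 4 lists by role. Of these 27 genes, 16 were bound, 59.3%, against 34.0% of all protein-coding genes, with 16, 16 and 17 in the shortened replicate lists. The lists were chosen with earlier results of these data known, so the share describes these 27 genes only. The partners and regulators of eIF4E and eIF4G had 7 of 10 genes bound. Among them larp, an RNA-binding protein gene, had rank 743 and ranks 532, 577 and 1224 in the replicates. Lk6, which encodes the eIF4E kinase, had rank 905 and ranks 1118, 696 and 972. Paip2, which encodes an inhibitor of poly(A)-binding protein, had rank 2471 and ranks 3308, 2568 and 2087. In the IDR list, all 3 ranked above every eIF gene other than eIF4G2, eIF4EHP and, for Paip2, eIF6. Of the eIF2 kinases, phosphatase adaptor and effector, 1 of 4 was bound, the effector crc (the fly ATF4) at rank 6228 and ranks 6144, 5234 and 5872. Of the other initiation and recycling factors, 2 of 4 were bound, kra, a relative of the human eIF5-mimic proteins, at rank 513 with ranks 614, 400 and 529, and pix, the ribosome recycling ATPase, at rank 3427 with ranks 2914, 3206 and 5119. Elongation and release factors had 6 of 9 genes bound. eEF1alpha1, which delivers aminoacyl-tRNA, had rank 170 with ranks 168, 228 and 158. eEF1gamma had rank 3185 and ranks 2618, 5035 and 3049, and eEF2, the translocase, had rank 3292 and ranks 3328, 3090 and 3538.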

How the data were processed

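Peak lists of an anti-GFP ChIP-seq of 3 biological replicates in 1 group were used. Chromatin had been sonicated to 200 to 800 bp, per the labels. The labels give lola as the antibody target in one field and GFP in another. The authors called peaks in each replicate and on the pooled replicates and deposited an IDR list. Its 9202 peaks were those with the highest scores in the pooled list. Not given in the sources used here are the aligner, the peak caller, the handling of reads that map to several places and the IDR cutoff. Peaks were ranked within each list by their score, a deposited value of the authors on an unstated scale. The deposited −log10 q values had a ceiling shared by all IDR peaks and were not used. The deposited summit offset, added to the peak start, gave the summit. The lists hold no read counts, so the depth is unknown, and intervals and shares cover counting error over genes only.

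Summits were set against Ensembl release 115 gene models (dm6, 6 chromosomes, transposable elements left out) in Python 3.11.15 with pandas 2.3.3, NumPy 2.4.6 and SciPy 1.17.1, and sequences were read from the RefSeq release 6 genome. The assignment was tested on simulated peaks. Coordinates are 1-based on dm6. Windows were 500 bp around any TSS, and a summit counted for every gene within reach. Replicate lists were shortened to the length of the IDR list. Every eIF gene was accounted for, each with an IDR promoter summit was named with its ranks, and up to 3 best-ranked bound genes were named from each list of other translation genes. No test was made. Genes are not replicates, and the IDR list is not independent of the 3 replicates. The genes, lists and motifs were chosen with earlier results of these data known. Alternatives were other windows, TSS sets, list lengths and each replicate left out.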

Additional observations from a re-analysis of the deposited data

How the results depend on the processing

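The count of 19 bound eIF genes became 8 with the 4601 highest-scoring IDR peaks and ran from 14 to 16 with 1 replicate left out. Without replicates 1, 2 and 3 in turn, the shares were 36.4%, 31.8% and 31.8% of eIF genes, against 29.8%, 30.3% and 28.7% of all protein-coding genes, so that the difference was smallest without replicate 2. The count ran from 13 to 23 under the other alternatives tried. With the 4601 peaks the groups held 0 eIF2, 2 eIF3 and 2 eIF4 genes, or 0%, 12.5% and 15.4%, against 20.0% of all protein-coding genes. With the nearest TSS only, eIF1 had 1 bound gene and eIF6 had 0. In all 3 shortened replicate lists, eIF1 had 1, eIF2 had 3 and eIF4 had 3. With 1 replicate left out, eIF1 ran from 1 (without replicate 1 or 3) to 2, eIF2 from 3 (without replicate 2) to 5 and eIF4 from 3 (without replicate 2 or 3) to 4. A gene then had to be bound in both remaining shortened lists. The replicate mean of 41.7% became 56.8% in the full lists (49.6% of all protein-coding genes), 19.7% in lists of 4601 peaks (19.7%) and 47.7% with a window of 1000 bp (38.0%). With 1 replicate left out it ran from 38.6% to 44.3%, against 33.1% to 34.9% of all protein-coding genes. The 9 eIF genes with a body summit became 20 with bodies extended by 500 bp (45.5%, against 40.4% of all protein-coding genes). They became 4 with only summits over 500 bp from own TSSs (9.09%, against 10.7%). With 1 replicate left out they ran from 8 to 9, or 18.2% to 20.5%, against 16.2% of all protein-coding genes each time. For eIF1A, with rank 2887 in the IDR list, the mean rank over the 3 replicates was 5074. This mean became 6255 without replicate 1, 2714 without replicate 2 and 6252 without replicate 3. For eIF4E1, with rank 7375 in the IDR list, the mean was 8686 over the 3 replicates and 9992 without replicate 2. The cause of these changes was not tested. The unknown depth limits what the absence of a summit means. No paired analysis was possible because the samples formed 1 group, with no second group to pair by replicate number. The differences between eIF genes and all protein-coding genes within each replicate ran from 2.70 to 11.5 percentage points.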
